A study of Mus musculus with 14 samples.

Results

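Autophagy is the route by which a cell encloses its own cytoplasm in a membrane and delivers it to the lysosome for digestion. The genes described here encode the machinery of that route, the lysosomal proteins that digest its cargo and regulators that link it to nutrient supply. They are 46 genes listed by name for their function, with earlier results of these data known. Of them, 44 were measured among the 22180 genes tested. A gene counted as measured when a probe set of the array carried its symbol alone, and the brightest such probe set stood for it. Optn and Bnip3l, which encode cargo receptors, had no such probe set in the table used and are not analysed here. The livers came from males of the inbred strain C57BL/6J, with 7 sleep-deprived mice (numbers 1, 2, 3, 5, 6, 10 and 13) and 7 control mice (numbers 4, 7, 8, 9, 11, 12 and 14). The series title gives a single period of 6 h without sleep. Gentle handling, cage changes and a water platform all appear in the design text, and which of them preceded these arrays is not stated. The labels give neither the age of the mice nor the time of day or feeding state at collection. Each numbered sample is taken here as 1 mouse, and p-values weigh the difference between the groups against the spread between these samples.

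Whole liver RNA was hybridised to Affymetrix whole-transcript arrays, and levels are log2 expression from RMA, so that a difference of 1 is a doubling. Array medians ranged from 3.44 to 3.49, and arrays correlated with each other at 0.984 to 0.990. The hepatocyte markers were bright, with Alb, the albumin gene, at a mean log2 level of 13.3. In bulk tissue, fewer cells of a type and less RNA per cell cannot be told apart. Differences are sleep-deprived minus control with limma's moderated standard error, and a gene passed at a Benjamini-Hochberg adjusted p under 0.05 over all 22180 genes.

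In autophagy, the ULK1 kinase complex and the lipid kinase VPS34 start the membrane, ATG9 and ATG2 supply it with lipid, and a chain of conjugation enzymes fixes proteins of the ATG8 family onto it. Cargo receptors bind both cargo and ATG8 proteins, and the closed vesicle fuses with the lysosome, whose cathepsins digest the contents. In liver the route supplies amino acids, lipids and glucose in fasting, and mTORC1, a nutrient-sensing kinase, holds it back.

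After sleep deprivation, 7 of the 44 genes rose and 1 fell (limma, adjusted p under 0.05). The genes that rose were Wipi1, Atg2b, Map1lc3b, Bnip3, Tfe3, Ulk1 and Atg16l1, by 1.14-fold to 1.31-fold, and the gene that fell was Atg7. Those 8 genes are 18.2% of the 44, against 8.50% of all genes tested. All 44 were brighter than the median gene, and among the genes brighter than the median 16.0% passed, so that the share passing in either direction was close to that of bright genes. By direction, 15.9% of the 44 rose, against 3.88% of all genes and 7.33% of the bright ones, and 2.27% fell, against 4.62% of all and 8.71% of the bright ones. These shares are a description without a test, since the genes were listed with earlier results of these data known.

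The differences were small. The median log2 difference of the 44 genes was -0.011, beside -0.0048 over all genes, and 18 of them pointed up and 26 down. Among the 8 that passed, the median absolute difference was 0.29, against 0.33 over all 1886 genes that passed, and 697 of those differed by more than the largest value here (Wipi1, 0.39). The values of the sleep-deprived and control mice did not overlap at 4 of the 44 genes (9.09%), against 3.13% of all genes. The share among bright genes was not counted, so this contrast is not matched for brightness. The 4 genes were Map1lc3b, Atg2b and Tfe3, with every sleep-deprived mouse above every control, and Atg7, with every sleep-deprived mouse below. Spread between mice within a group was also small, with a median SD of 0.096 over the 44 genes against 0.14 over the bright genes. It ran between 0.041 for Lamp1 and 0.17 for Wipi1.

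**Figure D1:**
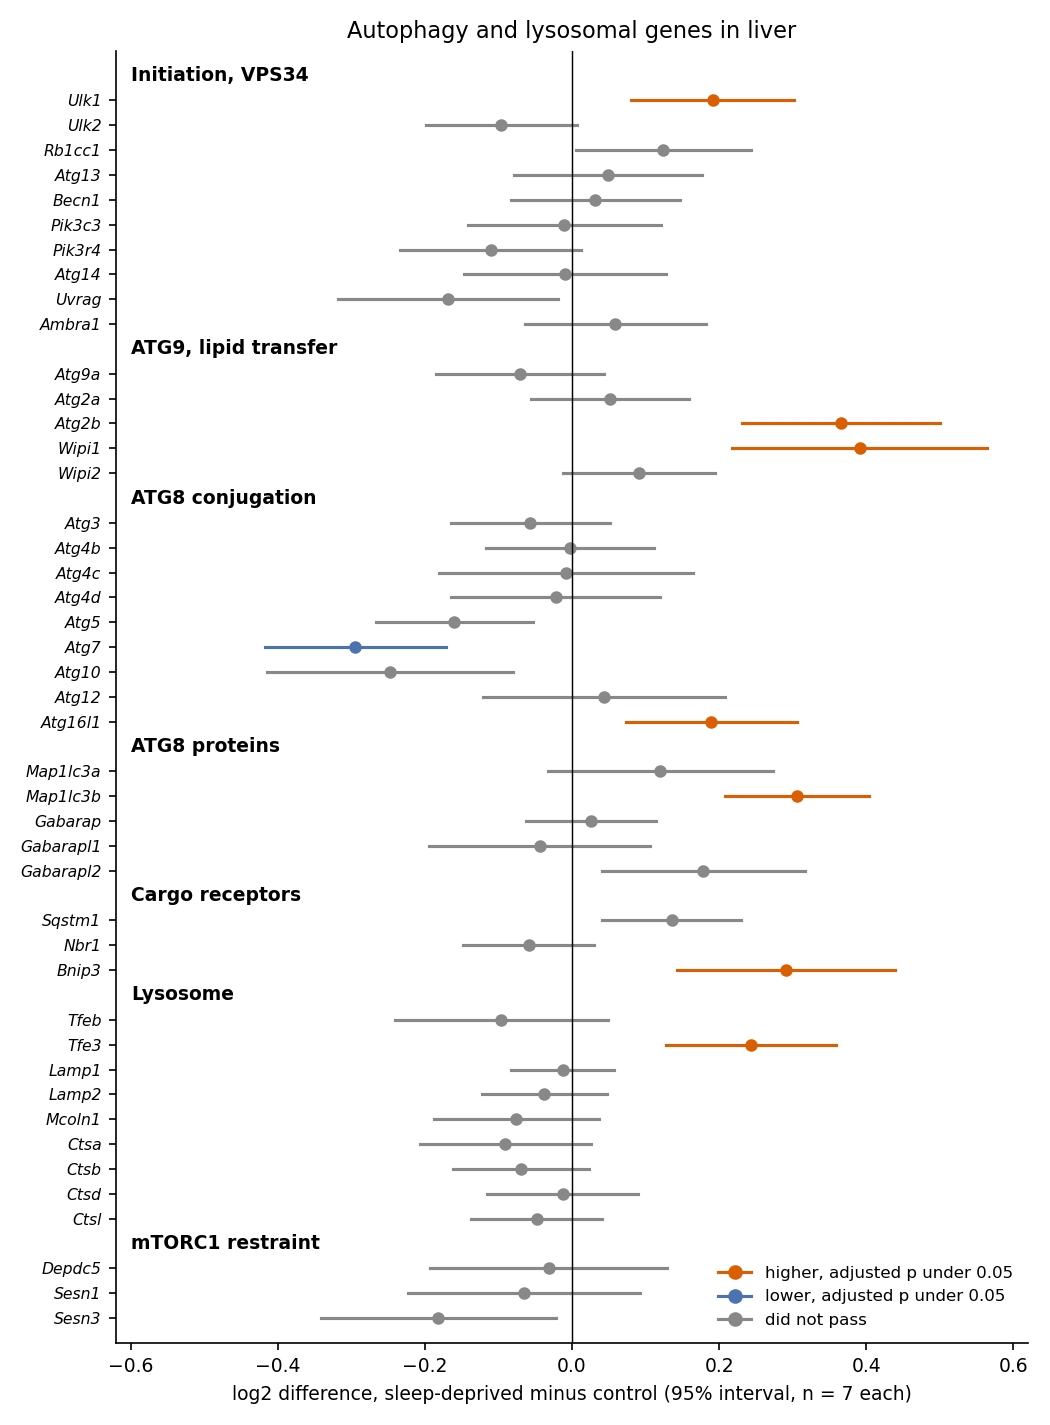
Log2 difference (sleep-deprived minus control, horizontal axis) of each of the 44 measured genes, grouped by role, with the 95% interval from limma as a line (n = 7 each). Orange marks the 7 genes that rose, blue the 1 that fell and grey the 36 that did not pass; Wipi1 lies farthest to the right at 0.39 and Atg7 farthest to the left at -0.29.

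The counts by role that follow stand beside 3.88% of all genes that rose and 4.62% that fell. Among the bright genes these shares were 7.33% and 8.71%. With 3 to 10 genes measured per role, the counts are descriptions without a test. Of the 10 genes of the initiation and VPS34 complexes, 1 rose and 0 fell. Ulk1, the kinase that starts autophagosome formation, had log2 levels from 8.51 to 8.73 in sleep-deprived mice (median 8.61), against 8.25 to 8.59 in controls (median 8.44). All 7 sleep-deprived mice lay above the control mean, and 5 of them above the highest control. The difference was 0.19 ± 0.053 (limma, adjusted p = 0.0273), and the call did not hold in 6 of 14 leave-one-out fits (adjusted p up to 0.0571) and with the sample number as a covariate (0.0975). The sample numbers are not balanced, averaging 5.71 for sleep-deprived mice and 9.29 for controls. Its paralog Ulk2, at -0.096 ± 0.049, did not pass (limma, adjusted p = 0.301). Rb1cc1, the scaffold of the ULK1 complex, was at 0.12 ± 0.057 (limma, adjusted p = 0.228). Nearest to the threshold among the others was Uvrag, a subunit of one form of the VPS34 complex, at -0.17 ± 0.071 (limma, adjusted p = 0.181), with an adjusted p of 0.0238 when control mouse 4 was left out. Becn1, Pik3c3, Pik3r4 and Atg14, which form the core of the VPS34 complex and its autophagy-specific arm, lay between -0.11 and 0.032. Their 95% intervals reached no further than -0.23 and 0.15. Atg13 and Ambra1 were at 0.049 and 0.059 and did not pass (limma, adjusted p = 0.761 and 0.678).

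Among the 5 genes that build the growing membrane, 2 rose and 0 fell. Atg2b encodes a protein that carries lipid from the endoplasmic reticulum into the growing membrane. It had log2 levels from 6.74 to 6.96 in sleep-deprived mice (median 6.89), against 6.27 to 6.65 in controls (median 6.59). The groups were fully separate, although control mice 4 and 12 lay below the other 5 controls. The difference was 0.37 ± 0.064, or 1.29-fold (limma, adjusted p = 0.000836). Wipi1 encodes a protein that binds the phosphoinositide made by VPS34 and recruits later factors. It had levels from 6.71 to 7.22 in sleep-deprived mice (median 7.02), against 6.45 to 6.73 in controls (median 6.59), a difference of 0.39 ± 0.083, or 1.31-fold (limma, adjusted p = 0.00416). Sleep-deprived mice 2, 3, 5 and 6 were at 7.02 or more and mice 1, 10 and 13 at 6.80 or less, and this group had an SD of 0.22, against 0.095 in controls. Atg9a, a lipid scramblase on the seed vesicles of the membrane, was at -0.071 ± 0.055, Atg2a at 0.052 ± 0.051 and Wipi2, which recruits the conjugation enzymes, at 0.091 ± 0.050, and none of them passed.

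**Figure D2:**
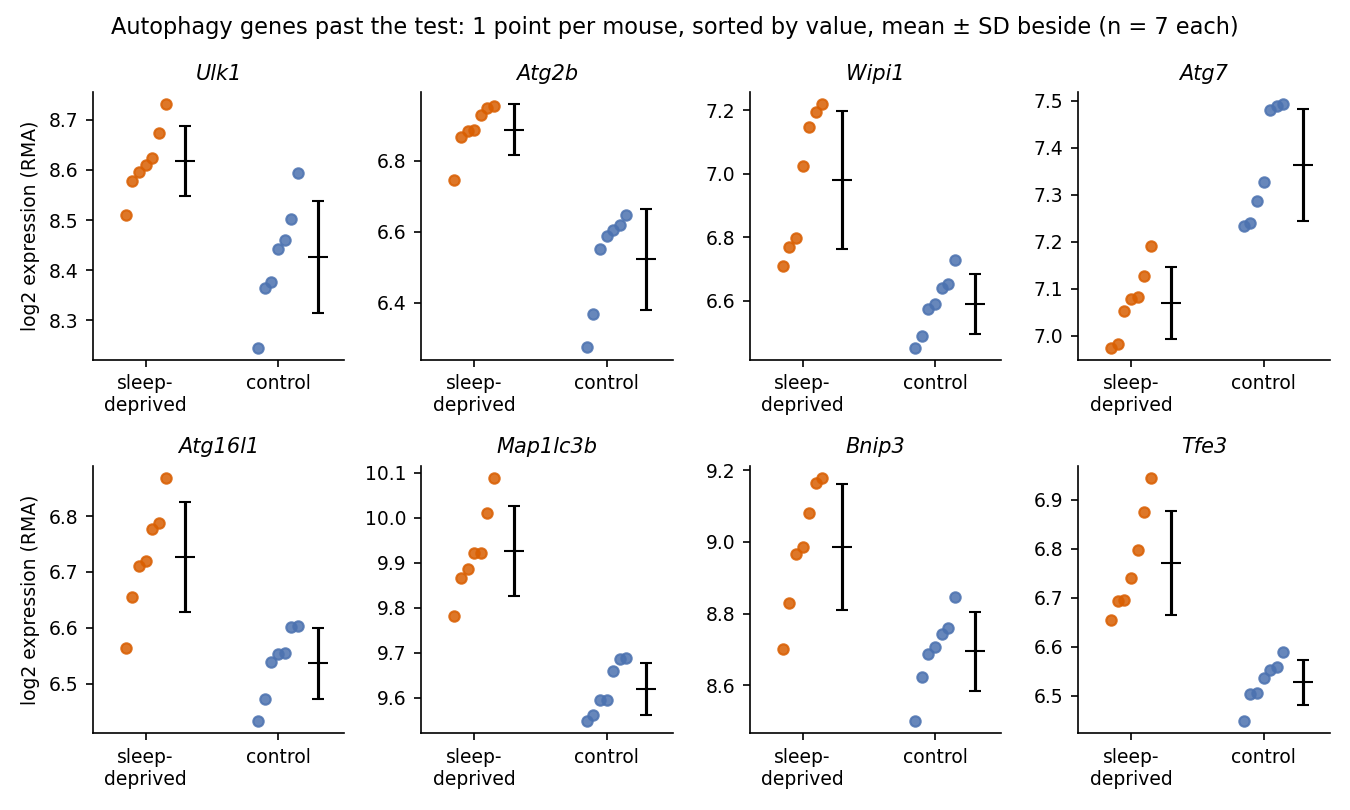
Log2 expression of the 8 genes that passed, 1 point per mouse sorted by value, with sleep-deprived mice on the left and controls on the right of each panel and the mean ± SD beside them (n = 7 each); each panel has its own vertical scale. The groups do not overlap for Atg2b, Atg7, Map1lc3b and Tfe3.

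The conjugation enzymes moved in both directions, with 1 of 9 higher and 1 lower. Atg7, the E1-like enzyme that activates both ATG8 proteins and ATG12, had levels from 6.97 to 7.19 in sleep-deprived mice (median 7.08), against 7.23 to 7.49 in controls (median 7.33). Every sleep-deprived mouse was below the lowest control. Atg7 fell by 0.29 ± 0.059 on the log2 scale, to 0.815 of the control level (limma, adjusted p = 0.00265). Atg10 and Atg5, the E2-like enzyme for ATG12 and the protein to which ATG12 is joined, lay just outside the threshold. Atg10 was at -0.25 ± 0.080 (limma, adjusted p = 0.0621) and Atg5 at -0.16 ± 0.051 (limma, adjusted p = 0.0580). Atg16l1, which brings the ATG12-ATG5 conjugate to the membrane, had levels from 6.56 to 6.87 in sleep-deprived mice (median 6.72), against 6.43 to 6.60 in controls (median 6.55). Its difference was 0.19 ± 0.056 (limma, adjusted p = 0.0377), with sleep-deprived mouse 10 the only one of its group below the highest control. That call did not hold in 10 of 14 leave-one-out fits (adjusted p up to 0.0839). Atg12 itself was at 0.044 ± 0.079, Atg3, the E2-like enzyme for ATG8 proteins, at -0.057 ± 0.051, and the proteases Atg4b, Atg4c and Atg4d, which trim ATG8 proteins, between -0.022 and -0.0032.

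TFEB and TFE3, the transcription factors of lysosomal and autophagy genes, bind a palindromic element whose core is TCACGTGA and which contains the E-box CACGTG. RefSeq promoters (GRCm38.p6, from 250 bases before to 50 bases after the start) were found for 38 of the 46 genes and searched on both strands. All 27025 genes with a promoter had 32851 promoters together, so a gene could have more than 1. A gene counted as a match when any of its promoters matched. Each stretch shown is from the first promoter of the gene with a match before the start, which need not be its main promoter. The core was present in 4 of the 38, namely Atg3, Ctsa, Ctsd and Mcoln1 (10.5%), against 1.12% of 27025 genes with a promoter, and none of these 4 genes passed the test. The E-box was present in 10 of the 38 (26.3%), against 8.09% of all, and 2 of the 10 passed, Atg7 and Bnip3. Of all genes tested 8.50% passed the test, and of those brighter than the median 16.0%. Counts of 0 of 4 and 2 of 10 are too small to set apart from these shares. A FOXO motif, GTAAACA, was present in 1, Sesn1 (2.63%), against 4.05% of all. Among the ATG8 genes and the membrane-building genes, 0 of 9 genes with a promoter held the E-box. A match describes the letters only. Upstream stretches are shown for Atg7, which fell, and for Atg3, its partner in ATG8 conjugation that did not pass. Capitals mark an E-box in the first and the longer core in the second, with a further E-box of Atg3 left in lower case. The first is at chr6:114670846-114671095 and the second at chr16:45158697-45158816, both on the plus strand:
Atg7: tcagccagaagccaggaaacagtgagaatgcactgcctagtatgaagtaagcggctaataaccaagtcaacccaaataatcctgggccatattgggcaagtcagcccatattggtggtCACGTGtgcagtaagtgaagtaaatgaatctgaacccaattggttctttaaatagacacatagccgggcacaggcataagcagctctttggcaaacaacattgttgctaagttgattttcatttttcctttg
Atg3: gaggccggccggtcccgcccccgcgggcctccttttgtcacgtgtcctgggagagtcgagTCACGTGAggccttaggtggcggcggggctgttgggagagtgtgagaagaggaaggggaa

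In the ATG8 family 1 of 5 genes rose and 0 fell. Map1lc3b encodes LC3B, the ATG8 protein whose lipid-bound form marks autophagosomes. It had levels from 9.78 to 10.09 in sleep-deprived mice (median 9.92), against 9.55 to 9.69 in controls (median 9.60). The groups did not overlap, and the difference of 0.31 ± 0.047, or 1.24-fold, had the smallest adjusted p of the 44 genes (limma, adjusted p = 0.000216). Gabarapl2, another ATG8 protein, did not pass at 0.18 ± 0.066 (limma, adjusted p = 0.114), with an adjusted p of 0.0381 without sleep-deprived mouse 13, whose level of 6.17 was the lowest of its group. Map1lc3a, which encodes LC3A, was at 0.12 ± 0.073, Gabarap at 0.026 ± 0.042 and Gabarapl1 at -0.044 ± 0.072. For Gabarap the 95% interval ran from -0.062 to 0.11.

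Among the 3 measured cargo receptors, 1 rose and 0 fell. Bnip3, a receptor on the outer mitochondrial membrane that is known to be induced by low oxygen and by FOXO factors, had levels from 8.70 to 9.18 in sleep-deprived mice (median 8.99), against 8.50 to 8.85 in controls (median 8.71). Mouse 2 was the lowest of the sleep-deprived mice and lay within the control range, as did mouse 3, and the other 5 were above the highest control. The difference was 0.29 ± 0.071, or 1.22-fold (limma, adjusted p = 0.0118). Sqstm1, which encodes p62, the receptor of ubiquitinated proteins, was at 0.14 ± 0.045 and just outside the threshold (limma, adjusted p = 0.0725). Sqstm1 passed in 5 of 23 alternatives, with the lowest adjusted p when the sample number was a covariate (limma, adjusted p = 0.00636). The others were bright genes alone, repeated quantile normalization, and leaving out sleep-deprived mouse 2 or control mouse 12. Nbr1, a receptor related to p62, was at -0.059 ± 0.043 (limma, adjusted p = 0.523). A promoter of Bnip3, the 1 receptor that rose, holds an E-box (capitals) 108 bases before its start. The stretch lies at chr7:138909507-138909756 on the minus strand:
Bnip3: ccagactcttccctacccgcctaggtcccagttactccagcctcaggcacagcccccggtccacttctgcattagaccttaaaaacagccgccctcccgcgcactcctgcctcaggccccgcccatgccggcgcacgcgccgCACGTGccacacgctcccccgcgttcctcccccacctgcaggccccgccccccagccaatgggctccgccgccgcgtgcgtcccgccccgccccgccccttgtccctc

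Of the 9 lysosomal genes, 1 rose and 0 fell, and the 1 that rose encodes a transcription factor. Tfe3 had levels from 6.65 to 6.94 in sleep-deprived mice (median 6.74), against 6.45 to 6.59 in controls (median 6.54). The groups did not overlap, with a difference of 0.24 ± 0.055, or 1.18-fold (limma, adjusted p = 0.00740). Its relative Tfeb, the dimmest of the 44 genes, ranged from 3.99 to 4.32 in sleep-deprived mice and from 4.16 to 4.46 in controls, at -0.096 ± 0.069 (limma, adjusted p = 0.523).

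The 7 membrane proteins and proteases of the lysosome did not pass, and all 7 lay between -0.091 and -0.013. Nearest to the threshold was the carboxypeptidase Ctsa at -0.091 ± 0.056 (limma, adjusted p = 0.427). The structural membrane protein genes Lamp1 and Lamp2 were at -0.013 ± 0.034 and -0.038 ± 0.041, the calcium channel Mcoln1 at -0.076 ± 0.053, and the cathepsins Ctsb, Ctsd and Ctsl at -0.069 ± 0.044, -0.013 ± 0.049 and -0.048 ± 0.043. Their 95% intervals reached no higher than 0.090 (Ctsd) and no lower than -0.21 (Ctsa). Promoters were found for 8 of the 9 lysosomal genes, and 5 of the 8 held the E-box (Ctsa, Ctsd, Ctsl, Lamp1 and Mcoln1). The 4 stretches below are shown because they hold the core or several E-boxes. Whether TFEB or TFE3 bind them was not tested. Capitals mark the core in Ctsd, Mcoln1 and Ctsa, and the 4 E-boxes in Lamp1, and a further E-box of Mcoln1 is in lower case. They lie at chr7:142387867-142387986 on the minus strand (Ctsd) and, on the plus strand, at chr8:3500399-3500518 (Mcoln1), chr2:164833653-164833772 (Ctsa) and chr8:13159040-13159159 (Lamp1):
Ctsd: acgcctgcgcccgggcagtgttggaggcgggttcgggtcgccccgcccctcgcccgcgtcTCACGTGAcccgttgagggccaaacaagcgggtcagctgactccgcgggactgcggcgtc
Mcoln1: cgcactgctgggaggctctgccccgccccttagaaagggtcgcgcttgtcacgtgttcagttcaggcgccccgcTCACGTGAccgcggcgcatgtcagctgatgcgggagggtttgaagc
Ctsa: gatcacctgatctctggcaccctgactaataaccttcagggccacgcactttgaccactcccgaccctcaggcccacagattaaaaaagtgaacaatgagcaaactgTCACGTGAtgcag
Lamp1: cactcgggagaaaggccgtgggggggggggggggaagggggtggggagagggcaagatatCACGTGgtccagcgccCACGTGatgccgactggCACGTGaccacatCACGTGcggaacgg

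The 3 genes that restrain mTORC1 did not pass. Sesn3 and Sesn1 encode sestrins, which sense amino acids and stress, and were at -0.18 ± 0.076 (limma, adjusted p = 0.177) and -0.065 ± 0.075 (adjusted p = 0.732). Depdc5, a subunit of the GATOR1 complex that switches mTORC1 off when amino acids are short, was at -0.032 ± 0.077 (adjusted p = 0.894).

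**Figure D3:**
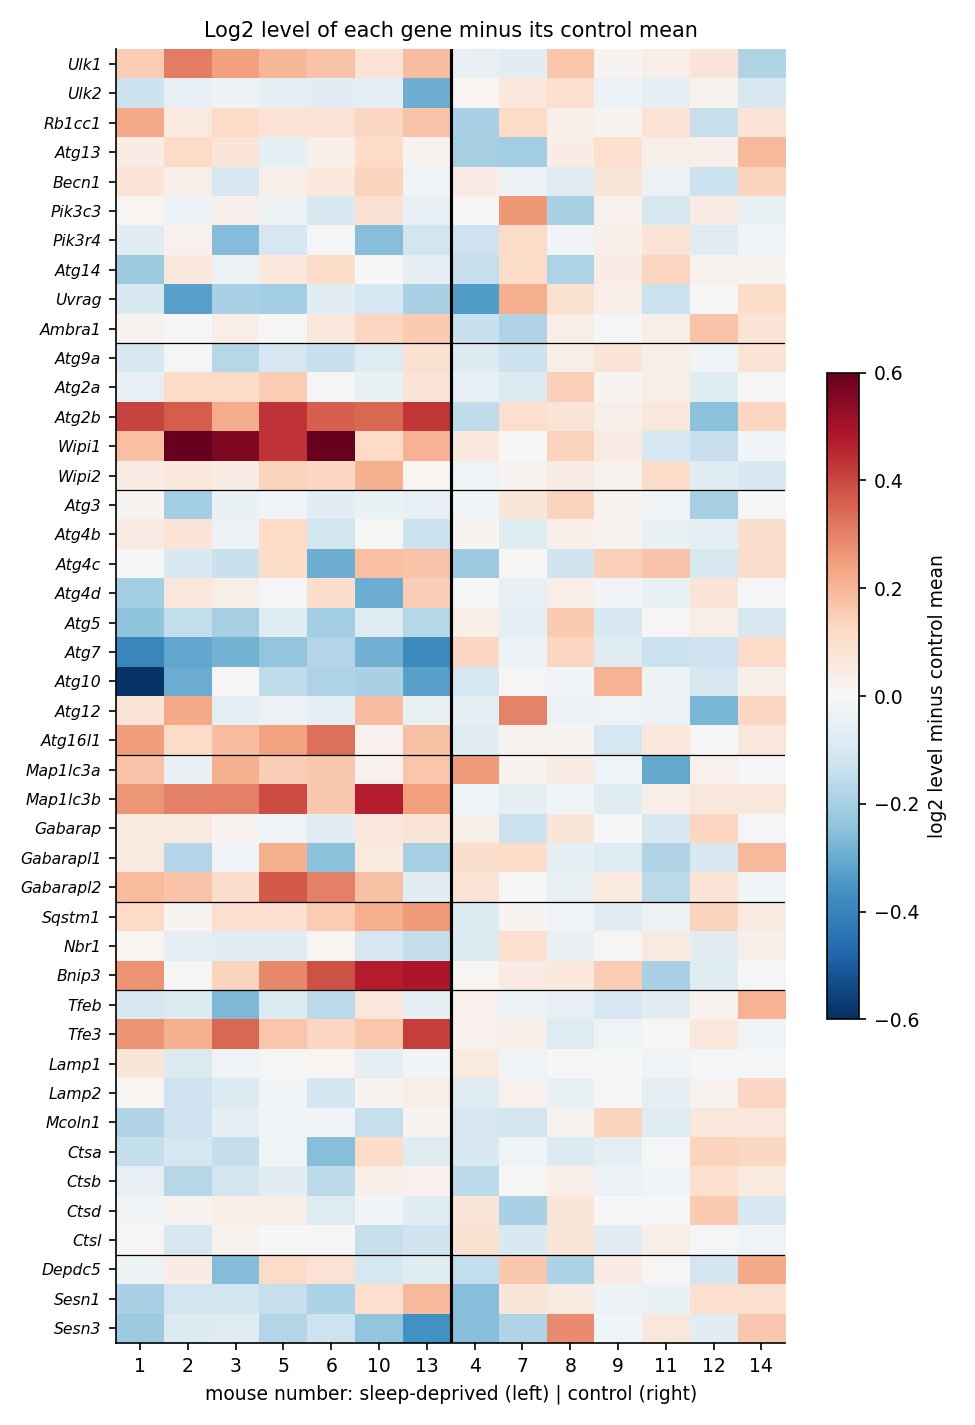
Log2 level of each of the 44 genes (rows, by role) in each of the 14 mice (columns) minus the control mean of the gene, with sleep-deprived mice left of the thick line and controls right of it. Wipi1, Atg2b, Map1lc3b and Tfe3 are red in all 7 sleep-deprived mice and Atg7 is blue in all 7, while the rows from Lamp1 to Ctsl are mostly pale in both groups.

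The rises were shared by most of the sleep-deprived mice. Of the 7 genes that rose, mice 5, 6 and 13 had all 7 above the highest control, mice 1, 2 and 3 had 6, and mouse 10 had 4. Averaged over the 7 genes, the level lay above the control mean by 0.24 to 0.31 in the sleep-deprived mice and between -0.036 and 0.052 of it in the controls. The genes were chosen for their difference, so this describes the mice and tests nothing.

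Several of these genes belong to families in which 1 paralog passed and another did not. Whether the changes of paralogs differed was tested within each mouse, by the difference of the log2 levels of the pair, for the 19 pairs in the 8 families of the list. The pairs were formed after the values had been seen, and the p-values are two-sided, from an exact permutation test over all 3432 assignments of the 14 arrays. The change of Ulk1 was larger than that of Ulk2 by 0.29 (exact permutation test, p = 0.000583, adjusted over the 19 pairs p = 0.00369), with all 7 sleep-deprived mice above the control mean. That p is the smallest the test can give, and it was also reached by the change of Map1lc3b over that of Gabarap, at 0.28, and by that of Tfe3 over that of Tfeb, at 0.34. Whether the dim Tfeb probe set was above background is not known, which limits the value for that pair. The change of Atg2b exceeded that of Atg2a by 0.31, and the change of Map1lc3b exceeded that of Gabarapl1 by 0.35 (exact permutation test, p = 0.00175 each, adjusted p = 0.00664).

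Other pairs gave less. The change of Wipi1 exceeded that of Wipi2 by 0.30 (exact permutation test, p = 0.0134, adjusted p = 0.0364), which did not hold in 11 of 14 leave-one-out repeats (adjusted p up to 0.0743). The change of Gabarapl1 minus that of Gabarapl2 was -0.22 (exact permutation test, p = 0.0117, adjusted p = 0.0364), which did not hold in 6 of these 14 or with repeated quantile normalization (adjusted p up to 0.0791). The change of Map1lc3b was not separated from that of Map1lc3a, at 0.19 (exact permutation test, p = 0.0717, adjusted p = 0.151, and 0.0295 without control mouse 11), nor from that of Gabarapl2, at 0.13 (p = 0.112, adjusted p = 0.194). The test was thus passed against 2 of the 4 relatives of Map1lc3b. For the changes of Lamp1 over Lamp2 the difference was 0.025 (exact permutation test, p = 0.551) and for Sesn1 over Sesn3 it was 0.12 (p = 0.315).

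**Figure D4:**
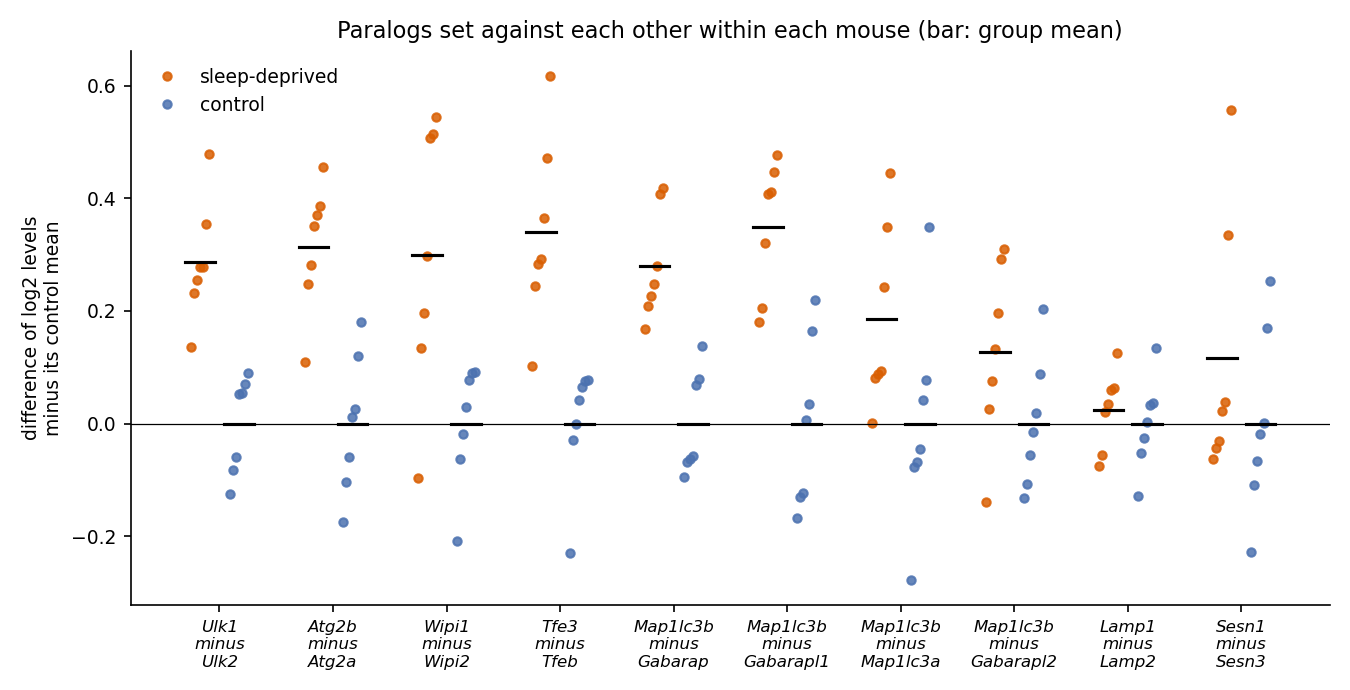
Difference of the log2 levels of 10 of the 19 paralog pairs in each mouse, minus its control mean (vertical axis), with sleep-deprived mice (orange) left of controls (blue) in each pair and a bar at the group mean. The sleep-deprived mean lies at 0.29 for Ulk1 minus Ulk2 and at 0.34 for Tfe3 minus Tfeb, and at 0.025 for Lamp1 minus Lamp2.

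Larger changes were found among autophagy genes outside the list of 46. These genes and the further lists below were also chosen with earlier results of these data known, so their shares are descriptions. Of 36 other autophagy genes measured, 6 rose and 3 fell (limma, adjusted p under 0.05), or 25.0%, against 8.50% of all genes and 16.0% of the bright ones. Retreg1, a receptor for autophagy of the endoplasmic reticulum, had levels from 8.41 to 9.35 in sleep-deprived mice (median 8.95), against 7.54 to 8.33 in controls (median 7.95). Retreg1 rose by 0.97 ± 0.11, or 1.95-fold (limma, adjusted p = 1.45e-05). Ncoa4, which delivers the iron store ferritin to autophagosomes, had levels from 6.26 to 6.64 in sleep-deprived mice, against 5.47 to 6.07 in controls, and rose by 0.69 ± 0.084 (limma, adjusted p = 1.96e-05). The groups were separate for both receptors. Trp53inp2 and Trp53inp1, whose proteins bind ATG8 proteins, rose by 0.56 ± 0.049 (limma, adjusted p = 4.45e-07) and 0.88 ± 0.15 (adjusted p = 0.000678). Nrbf2, a subunit of the VPS34 complex, rose by 0.30 ± 0.057 (limma, adjusted p = 0.00176). Stbd1, which links glycogen to ATG8 proteins, had a difference of -0.31 ± 0.059 (limma, adjusted p = 0.00146), with every sleep-deprived mouse below every control. The other calls, named after their values were seen, were Atg16l2, higher, and Stx17 and Wdr45b, lower, of which Stx17 and Wdr45b did not hold in 9 and 8 leave-one-out fits and Atg16l2 in 1.

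Of 40 further lysosomal hydrolases and membrane proteins, 1 rose and 4 fell. These are 12.5%, between the 8.50% of all genes and the 16.0% of the bright ones, and so near the background. By direction, 2.50% rose, against 3.88% of all genes and 7.33% of the bright ones. The share that fell was 10.0%, against 4.62% and 8.71%. The median was -0.071, and 31 of the 40 had a negative difference, as did 11447 of all 22180 genes. Lipa, the acid lipase that digests cholesteryl esters and triglycerides, had a difference of -0.33 ± 0.082 (limma, adjusted p = 0.0129, and 0.0732 with the sample number as a covariate). Gnptab, which makes the mannose 6-phosphate tag that sends enzymes to the lysosome, was at -0.31 ± 0.079 (limma, adjusted p = 0.0171). The cholesterol exporter Npc1 was at -0.19 ± 0.045 (limma, adjusted p = 0.0108), but at -0.087 for the mean of its 2 probe sets (adjusted p = 0.521). The remaining calls, Idua (-0.25 ± 0.075, adjusted p = 0.0417) and the 1 that rose, Grn (0.23 ± 0.069, adjusted p = 0.0469), did not hold in 9 and 11 of 14 leave-one-out fits.

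Subunits of the V-ATPase, the proton pump that acidifies the lysosome, had 3 of 15 higher and 0 lower, with a median of 0.11. The share that rose was 20.0%, against 3.88% of all genes and 7.33% of the bright ones. In either direction the same 20.0% stood against 8.50% of all genes and 16.0% of the bright ones. Atp6v0a2 rose by 0.29 ± 0.057 (limma, adjusted p = 0.00193), while the calls of Atp6ap1 (0.22 ± 0.065, adjusted p = 0.0375) and Atp6v0e (0.18 ± 0.054, adjusted p = 0.0459) did not hold in 9 and 11 leave-one-out fits. Among 42 genes of mTORC1, its regulators and AMPK, the energy-sensing kinase, 1 rose and 2 fell, with a median of -0.042. That share, 7.14%, was below the 8.50% of all genes and the 16.0% of the bright ones. By direction, 2.38% rose, against 3.88% of all genes and 7.33% of the bright ones. The share that fell was 4.76%, against 4.62% and 8.71%. Ddit4, which inhibits mTORC1 through the TSC complex, had levels from 6.14 to 7.36 in sleep-deprived mice (median 7.03), against 4.30 to 5.43 in controls (median 4.77), a 4.29-fold rise (limma, adjusted p = 8.03e-07). Fnip2, a partner of folliculin in the control of mTORC1 and TFE3, was at -0.48 ± 0.065 (limma, adjusted p = 5.66e-05), with the groups separate. Prkab1, an AMPK subunit, was at -0.21 ± 0.060 (limma, adjusted p = 0.0349), which did not hold in 9 leave-one-out fits. Of 6 factors of the FOXO and TFEB families outside the list, Foxo1 rose (0.28 ± 0.060, limma, adjusted p = 0.00426) and the others did not pass. This share, 16.7%, was close to the 16.0% of the bright genes, beside 8.50% of all.

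**Figure D5:**
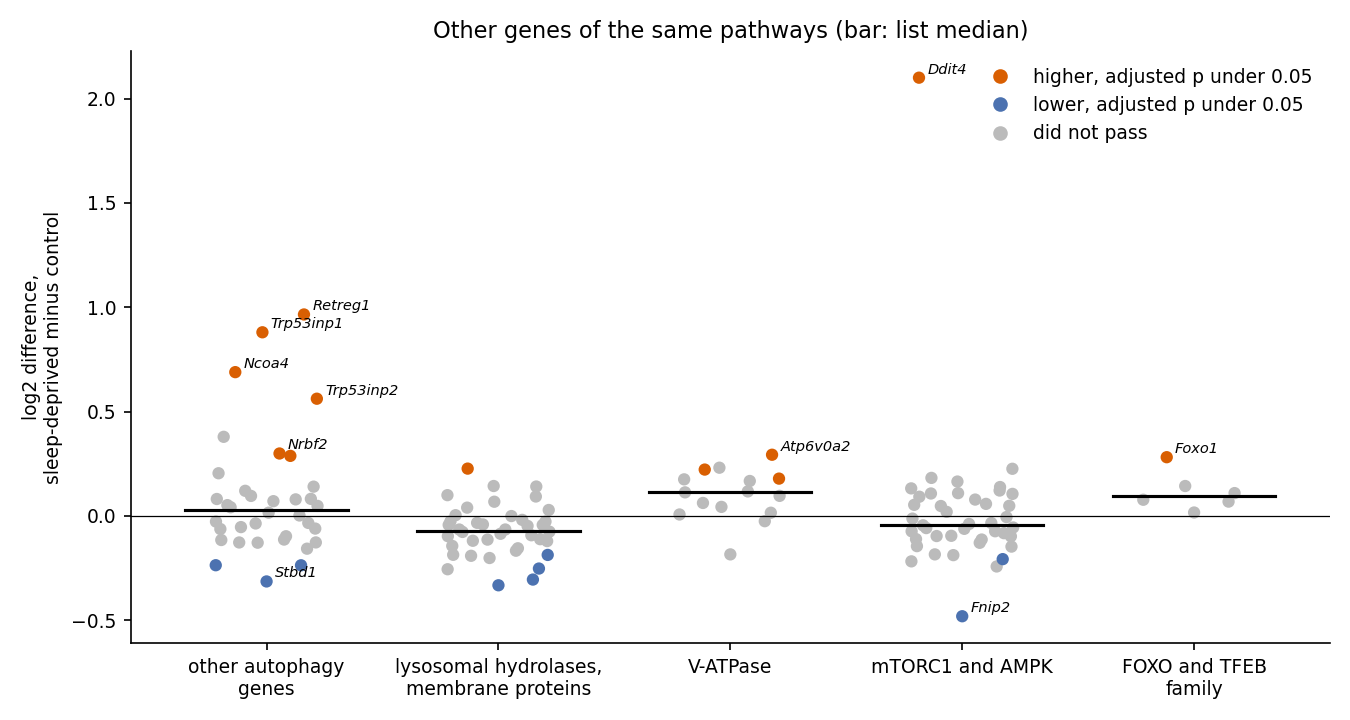
Log2 difference (sleep-deprived minus control, vertical axis) of each measured gene of 5 further lists, 1 point per gene, with a bar at the list median; orange marks genes that rose, blue genes that fell and grey genes that did not pass, and names are given where the adjusted p was under 0.005. Ddit4 stands highest at 2.10, Retreg1 leads the autophagy genes at 0.97, and the medians lie between -0.071 and 0.11.

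Markers of other liver cells were read from the same arrays, since macrophages and endothelial cells also hold many lysosomes. Over all genes 3.88% rose and 4.62% fell, and over the bright ones 7.33% and 8.71%. Of 12 markers of Kupffer cells and macrophages 0 rose and 0 fell. The log2 of their summed level ran from 9.94 to 10.59 in sleep-deprived mice and from 9.76 to 11.00 in controls, with Timd4 the dimmest at a mean of 5.02. Of 7 markers of sinusoidal endothelial cells 3 rose (42.9%), namely Lyve1 (1.13 ± 0.18), Oit3 and Pecam1, and 0 fell. The other 4, Kdr, Stab2, Fcgr2b and Clec4g, did not pass. Kdr was the only 1 of the 7 with a negative difference (-0.18). Summed levels of the 7 ran from 10.48 to 10.89 in sleep-deprived mice and from 10.32 to 10.68 in controls. Pecam1 was the dimmest of these endothelial markers at 6.43. The part of endothelial cells in the rises of autophagy genes was not tested. Of 7 hepatocyte markers 3 rose (Apoa1, Cps1 and Tat, also 42.9%) and 0 fell. Their summed levels ran from 15.3531 to 15.4211 in sleep-deprived mice and from 15.2512 to 15.3516 in controls, so that the groups did not overlap, by a narrow margin. Of the markers of stellate cells 0 of 6 passed, of bile duct cells 1 of 4 (Sox9, higher), of lymphocytes 1 of 4 (Cd79a, lower) and of neutrophils 0 of 5, with the neutrophil gene S100a8 dimmest at 1.95.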

How the data were processed

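Liver RNA, 100 ng per sample, was labelled with the Affymetrix WT PLUS kit, per the labels' protocols. The deposited log2 values per probe set were made by the authors with RMA (background correction, quantile normalization and probe summary), which the submitters' processing notes name without a version. RMA compresses differences near background (software and annotation: not given in the sources used here). Depth does not apply to arrays, and 7 per group limit the precision.

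Of 41345 probe sets, 23521 carried 1 gene symbol in the platform's annotation, 1814 had several, and the 16010 that it does not list stay unnamed. The brightest probe set stood for a gene, which gave 22180 genes with no filter on dim ones. Groups came from the titles, whose numbers are not shared between groups. Sleep-deprived minus control was fitted on all genes by lmFit and trended eBayes of limma 3.58.1 (R 4.3.3), two-sided, with Benjamini-Hochberg adjustment. The steps were tested on simulated data. The genes and lists were chosen with earlier results of these data known. Every listed gene was accounted for by role, with values for those past the threshold and the nearest outside it. From each further list up to 6 genes past the threshold were named, by smallest adjusted p, and 3 more autophagy genes after their values were seen. Paralog pairs were compared with exact permutation tests. Promoters came from RefSeq (GRCm38.p6), and 3 motifs were searched. Alternatives were other eBayes settings, array weights, bright genes alone, other uses of probe sets, repeated scaling, the sample number as a covariate and leaving out each mouse.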

Additional observations from a re-analysis of the deposited data

Results flagged for a closer look

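In 7 of the 88 sets of 7 values tested (44 genes in 2 groups), 1 mouse stood apart from the rest of its group by Dixon's test, where chance flags about 1 in 20. Among sleep-deprived mice, Atg2b was lowest in mouse 3 at 6.74, with the others from 6.87 to 6.96, and still above every control. Atg3 was lowest in mouse 2 at 8.51 (others from 8.66 to 8.73), and Ulk2 in mouse 13 at 8.41 (others from 8.58 to 8.68). Among controls, Atg10 was highest in mouse 9 at 5.73 (others from 5.41 to 5.55), Lamp1 highest in mouse 4 at 10.78 (others from 10.69 to 10.72), Sesn1 lowest in mouse 4 at 5.51 (others from 5.73 to 5.87) and Tfeb highest in mouse 14 at 4.46 (others from 4.16 to 4.28).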

How the results depend on the processing

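Of the 8 calls among the 44 genes, those of Wipi1, Atg2b, Map1lc3b, Bnip3, Tfe3 and Atg7 held in all 23 alternatives run, and no called gene changed sign. Ulk1 and Atg16l1 lost their calls in 8 and 12 of the 23. The count of genes that rose lay between 5 and 7 when 1 mouse was left out and between 6 and 8 otherwise. The count that fell was 1 in the main analysis, 3 when only bright genes were tested (Atg5 and Atg10 passed beside Atg7, with fewer genes tested) and 1 to 2 when 1 mouse was left out (2 without sleep-deprived mouse 3 or without control mouse 4, 9 or 14). The median of the 44 genes stayed below 0, from -0.023 to -0.0062 when 1 mouse was left out and at -0.0049 with the sample number as a covariate. Of the 36 genes that did not pass, 9 changed sign in some alternative, and 5 passed in at least 1. Over the alternatives, the counts in the further lists ranged from 5 to 7 higher and 1 to 3 lower for other autophagy genes, 0 to 1 higher and 2 to 7 lower for lysosomal hydrolases and membrane proteins, 1 to 4 higher for V-ATPase subunits, and 1 to 2 higher and 1 to 3 lower for mTORC1 and AMPK. Pairs of paralogs were repeated with quantile normalization and without each mouse, alternatives chosen after seeing the data. No paired analysis was possible because the groups share no replicate number. The arrays hold no detection calls, so whether dim genes such as Tfeb are above background is not known.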
